A study of Mus musculus with 8 samples.

Results

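Enteroendocrine cells are the scattered hormone-producing cells of the intestinal epithelium. They arise from the secretory lineage of the crypt when the transcription factor Neurog3 is switched on, and later factors of the same cascade set which peptide or amine each cell makes. The genes described here are 5 such factors, Insm1, Myt1, Fev, Lmx1a and Pax6, together with Glp1r, the receptor for glucagon-like peptide 1, a hormone that enteroendocrine L cells release. They were picked by name among the genes that the authors' table for day 0 lists as different between the genotypes, so all 6 are members of that table of 309 genes. Because the table had already selected them for this difference, their values and the calls given for them are a description and support nothing further.

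Primary intestinal epithelial cells (IECs) were taken from the colons of Efhd2f/f Vil1cre/+ mice, in which Cre recombinase under the villin promoter deletes floxed Efhd2 in the epithelium, and of Efhd2f/f mice, which carry the floxed alleles without Cre and which the labels call Wildtype. Neither genotype received dextran sodium sulfate (DSS), a colitis-inducing agent, on day 0, and both were also sampled on day 7 of DSS colitis. There were 2 libraries in each of the 4 groups, numbered 51 and 53 for Efhd2f/f Vil1cre/+ and 50 and 52 for Efhd2f/f on day 0. The study used mice of 8 to 10 weeks. The sources used here do not say whether a library came from 1 animal, and all controls lacked Cre, so effects of Cre and of Efhd2 loss cannot be told apart.

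The targeted gene, Efhd2, was at 556 and 713 normalized counts in the Efhd2f/f Vil1cre/+ libraries and at 2663 and 2686 in the Efhd2f/f libraries. A normalized count is the authors' scaled value for a gene in a library. The values are not whole numbers, the scaling method is not given in the sources used here, and a value cannot be read as a number of reads. The depth of the libraries is unknown because the table holds part of the genes. For all 309 genes in it, the means of the genotypes differed by more than 2-fold. Over these genes the values summed to between 149389 and 257002 per library. Of 11 epithelial marker genes, Aqp8, a water channel of colonocytes, was the only one listed. A gene that is not in the table has no value here, and the labelled cell type could therefore not be checked against its markers.

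Both the factors and the receptor were lower in Efhd2f/f Vil1cre/+ IECs on day 0. In all 6 genes both Efhd2f/f Vil1cre/+ libraries lay below both Efhd2f/f libraries, as they did for 67% of the genes listed. The mean level in Efhd2f/f Vil1cre/+ IECs was between 26.7% (Pax6) and 40.6% (Lmx1a) of that in Efhd2f/f IECs. Summed over the 6 genes, the level was 100.4 and 116 normalized counts in the Efhd2f/f Vil1cre/+ libraries and 359 and 277 in the Efhd2f/f libraries. In bulk RNA, fewer cells of a type and less RNA of a gene per cell cannot be told apart. The study stained chromogranin A protein, a marker of enteroendocrine cells, in the colon of both genotypes without DSS. It reported that epithelial loss of Efhd2 left differentiation unaffected. Protein staining of sections is a different measure from RNA, and the values here were not compared with it.

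The 6 genes lie on 3 chromosomes of GRCm38. Insm1, Myt1 and Pax6 are on chromosome 2, Fev and Lmx1a on chromosome 1 and Glp1r on chromosome 17. RefSeq promoter sequence (GRCm38.p6) was found for 5 of the 6 genes, all but Insm1. The sequences given are the bases before the RefSeq start site nearest to the gene start in the table, shown because these genes were lower together, so that shared letters can be looked for. Bases inside the gene as annotated were left out, which removes the whole window of Lmx1a and shortens those of Fev and Glp1r. The windows are chr1:74885420-74885658 on the minus strand for Fev, chr2:105668646-105668895 on the plus strand for Pax6, chr2:181763082-181763331 on the plus strand for Myt1 and chr17:30901617-30901816 on the plus strand for Glp1r. Each is written 5′ to 3′ along the gene's strand, and capitals mark matches to 1 of 8 short motifs on either strand.
Fev: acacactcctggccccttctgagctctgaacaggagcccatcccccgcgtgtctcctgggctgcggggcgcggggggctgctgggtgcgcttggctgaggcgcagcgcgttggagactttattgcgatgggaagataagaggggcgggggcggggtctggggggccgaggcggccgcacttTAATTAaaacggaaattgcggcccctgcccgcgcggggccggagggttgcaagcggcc
Pax6: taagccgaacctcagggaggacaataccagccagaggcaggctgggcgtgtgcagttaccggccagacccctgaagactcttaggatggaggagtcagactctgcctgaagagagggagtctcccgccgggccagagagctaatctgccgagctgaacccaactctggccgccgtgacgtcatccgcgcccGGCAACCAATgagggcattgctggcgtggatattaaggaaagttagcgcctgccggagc
Myt1: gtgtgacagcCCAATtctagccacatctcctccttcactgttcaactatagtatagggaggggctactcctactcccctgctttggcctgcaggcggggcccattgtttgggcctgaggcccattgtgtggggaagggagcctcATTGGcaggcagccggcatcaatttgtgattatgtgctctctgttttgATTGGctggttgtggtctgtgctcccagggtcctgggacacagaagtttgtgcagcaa
Glp1r: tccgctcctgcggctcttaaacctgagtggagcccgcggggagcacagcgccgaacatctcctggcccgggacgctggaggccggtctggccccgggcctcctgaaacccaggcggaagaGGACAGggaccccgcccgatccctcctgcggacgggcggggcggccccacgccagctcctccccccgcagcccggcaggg

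The motifs searched were CAGATG, an E-box of the kind that bHLH factors such as Neurog3 and Neurod1 bind, the further E-box CAGCTG, the homeodomain core TAATTA, the RFX site core GGCAAC, the left REST core CAGCACC, the right REST core GGACAG, the CCAAT box, searched by the letters of its name, and the motif TATAAA of core promoters. TAATTA occurred in Fev, 69 bases before the start site. It is present in 4.84% of the 32851 promoter windows of 250 bases. In Pax6, GGCAAC at 59 bases overlapped a CCAAT box at 54 bases before the start site, and these motifs are present in 10.4% and 33.8% of all windows. Myt1 held 3 CCAAT boxes, and Glp1r held GGACAG, present in 18.7% of windows. No motif was shared by all 4 windows, and neither E-box, present in 14.4% and 13.0% of all windows, was found in them. The windows of Fev, Pax6 and Glp1r held 22, 15 and 20 CpG dinucleotides and that of Myt1 held 2, beside a median of 6 over all windows. These matches are a description of the letters, not of binding.

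Insm1 encodes a zinc finger factor that is required for differentiation of endocrine cells in gut and pancreas. It lies on the plus strand of chromosome 2 from 146221921 to 146225020 and has 1 exon. It was at 27.4 and 31.6 normalized counts in the Efhd2f/f Vil1cre/+ libraries 51 and 53 and at 84.3 and 75.0 in the Efhd2f/f libraries 50 and 52. The libraries of each genotype were close to each other, and the lowest Efhd2f/f library was 2.38-fold above the highest Efhd2f/f Vil1cre/+ library. The means were 29.5 ± 2.96 and 79.6 ± 6.59 (± s.d., n = 2 libraries each). On log2(normalized count + 1) the difference was -1.40 (standard error 0.39, limma, as for the standard errors below).

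Myt1 encodes a zinc finger factor of the C2HC family, first named for myelin genes and also expressed in endocrine progenitors. It spans 181763332 to 181827797 on the plus strand of chromosome 2, with up to 23 exons in a coding transcript. It was at 17.3 and 27.0 normalized counts in libraries 51 and 53 and at 81.4 and 50.2 in libraries 50 and 52. Here each genotype was uneven, and library 50 was 1.62-fold above library 52. The gap between the genotypes was the smallest of the 6, with the lowest Efhd2f/f library 1.86-fold above the highest Efhd2f/f Vil1cre/+ library. The log2 difference was -1.52 (standard error 0.44).

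Fev and Lmx1a are both linked to serotonin. Fev is the ETS factor that specifies serotonergic neurons of the brain and is expressed in enterochromaffin cells, the serotonin-producing enteroendocrine cells, and Lmx1a is a LIM homeodomain factor of the same cells. Fev, on the minus strand of chromosome 1 from 74881509 to 74885419, was at 8.12 and 10.2 normalized counts in libraries 51 and 53 and at 44.2 and 23.0 in libraries 50 and 52. The Efhd2f/f libraries differed 1.92-fold from each other, the widest gap between replicates of that genotype among the 6 genes, and the log2 difference between genotypes was -1.70 (standard error 0.45). Lmx1a, on the plus strand of chromosome 1 from 167689237 to 167848741, was at 20.3 and 30.7 against 64.7 and 60.8. Its Efhd2f/f libraries were nearly level while its Efhd2f/f Vil1cre/+ libraries differed 1.51-fold, and its log2 difference of -1.29 (standard error 0.41) was the smallest of the 6.

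Pax6 encodes a paired-box and homeodomain factor that activates the proglucagon gene in endocrine cells. It lies on the plus strand of chromosome 2 from 105668900 to 105697364. It was at 7.09 and 5.53 normalized counts in libraries 51 and 53 and at 24.5 and 22.8 in libraries 50 and 52. It had the lowest counts of the 6 genes and the widest gap between genotypes, 3.22-fold from the highest Efhd2f/f Vil1cre/+ to the lowest Efhd2f/f library. The log2 difference was -1.76 (standard error 0.39). An antisense gene, Pax6os1, overlaps its 5′ end on the other strand, and whether the authors counted by strand is not given in the sources used here, so reads of the pair may be mixed.

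Glp1r encodes a class B G protein-coupled receptor. In the mouse intestine it is known from intraepithelial lymphocytes and enteric neurons as well as from epithelial cells. The table places it on the plus strand of chromosome 17 from 30901867 to 30936510, where 2 noncoding genes overlap it on the other strand in GENCODE release M21. It was at 20.2 and 11.0 normalized counts in libraries 51 and 53 and at 59.8 and 44.7 in libraries 50 and 52. It was higher in library 51 than in library 53, like Pax6 and unlike the other 4 genes. The log2 difference was -1.72 (standard error 0.44). None of the 8 other class B receptor genes searched, which include those for glucagon, GIP and GLP-2, is in the table.

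**Figure D1:**
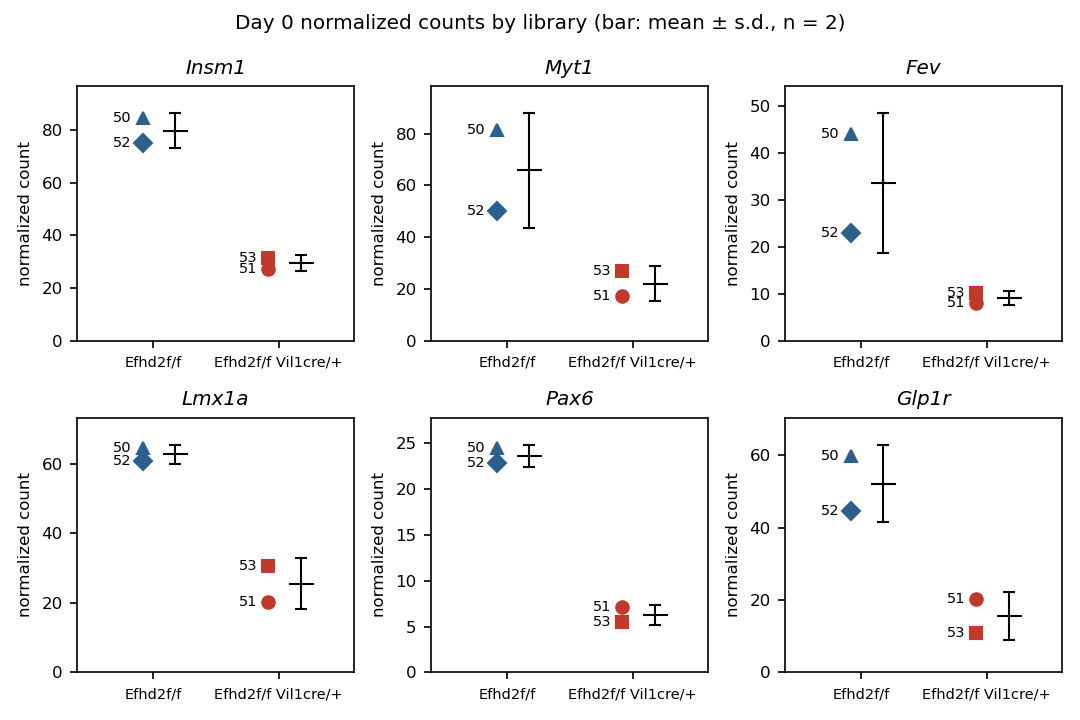
Normalized counts (y axis, linear from 0) of the 6 genes in each day 0 library, numbered beside its point, with Efhd2f/f in blue and Efhd2f/f Vil1cre/+ in red and the mean ± s.d. of 2 libraries beside the points. In each panel both red points lie below both blue points, and the blue points of Fev and Myt1 are the most spread.

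Among the Efhd2f/f libraries, library 50 was above library 52 in 6 of 6 genes, as it was in 63.8% of the genes listed. Library 53 was above library 51 in 4 of 6. Per kilobase of the gene length given in the table, Glp1r had the highest level in Efhd2f/f IECs, with 40.4 and 30.2 normalized counts per kilobase in libraries 50 and 52. Insm1 followed with 27.2 and 24.2, Fev with 27.3 and 14.3, and Lmx1a with 19.0 and 17.9. The 2 libraries of Fev span those of Insm1 and of Lmx1a, so Fev has no clear place in this order, while Insm1 was above Lmx1a in both libraries. Myt1, with 11.3 and 6.98, and Pax6, with 2.10 and 1.95, were lower than these in both libraries. This order depends on the length given, which is 11694 bases for Pax6, a gene with 11 coding transcripts, and 1480 bases for Glp1r. Which transcripts were present was not tested. All 6 genes were in the lower part of the table by level, with means over the 4 libraries from 14.99 (Pax6) to 54.6 (Insm1) beside a median of 97.7 over the listed genes.

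By limma on the whole table, with Benjamini-Hochberg adjustment and a threshold of 0.05 and an absolute log2 difference above 1, all 6 genes were called lower. So were 62.5% of all genes listed, and 92.9% were called in either direction, so nothing is read from this count. The median log2 difference of the 6 genes was -1.61, and that of all listed genes called lower was -1.54. There were 74 listed genes with a log2 difference below that of Pax6, the largest of the 6. Calls in the whole table depended on single libraries. A genotype with a library left out has 1 library, so calls for the 6 genes are not read from those fits. With 2 libraries against 2, the smallest two-sided p of an exact permutation test on 1 gene is 0.333. When a single library was dropped, the differences of the 6 genes lay between -2.16 and -1.01. They ranged from -2.16 to -1.25 for Fev and from -1.50 to -1.31 for Insm1. Their sign was fixed beforehand, because in all 6 genes both Efhd2f/f Vil1cre/+ libraries lay below both Efhd2f/f libraries. No stability is read from these ranges.

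**Figure D2:**
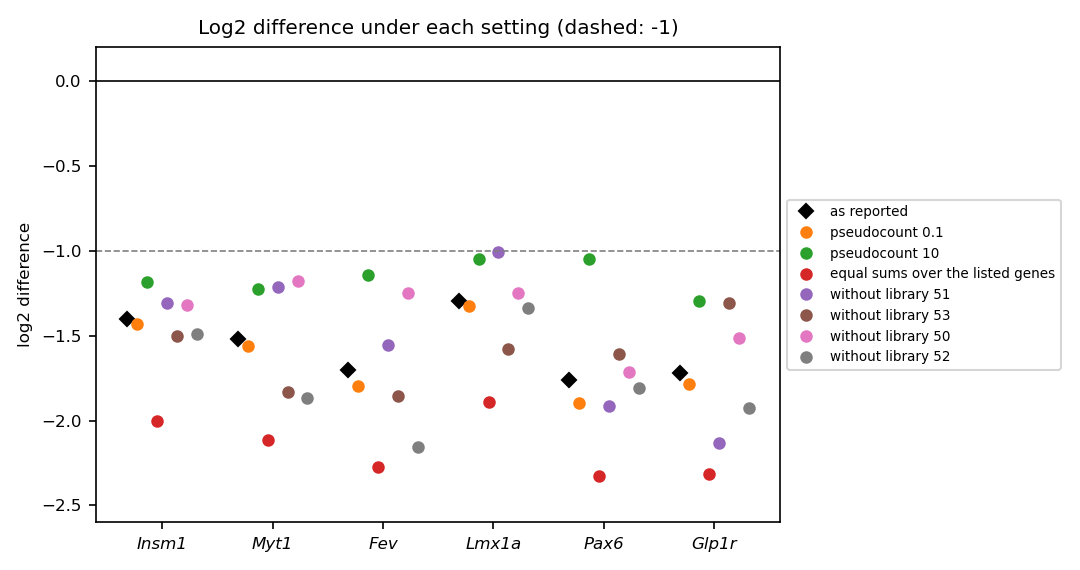
Log2 difference (y axis, Efhd2f/f Vil1cre/+ minus Efhd2f/f) of each gene as reported (black diamond) and under other pseudocounts, equal sums and with each library left out. All points lie below the dashed line at -1, and the lowest points, down to -2.32, come from giving every library the same total over the genes in the table.

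Other enteroendocrine genes were counted from lists of 22 further transcription factors, 17 hormone and amine genes, 26 secretory granule genes, 18 nutrient and hormone sensors and the 8 class B receptors. Of these 91 genes, 10 are in the day 0 table. In the hormone and amine list 5 of 17 are listed and all 5 were called lower, with a median log2 difference of -1.96. Nts, the neurotensin gene, was at 123 and 112 normalized counts in libraries 51 and 53 and at 709 and 297 in libraries 50 and 52. Pyy, the gene of the L cell peptide YY, was at 123 and 114 against 370 and 203, Slc18a1, which encodes the vesicular monoamine transporter of enterochromaffin cells, at 83.1 and 94.7 against 220 and 166, and Ppy, the pancreatic polypeptide gene, at 10.1 and 8.31 against 86.4 and 34.1. In each of these library 50 was also the highest.

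In the granule list 4 of 26 are listed and all 4 were called lower, with a median log2 difference of -1.23. These are the chromogranin genes Chgb (-1.03) and Chga (-1.17), the prohormone carboxypeptidase gene Cpe (-1.29) and Resp18 (-1.39). The hormone and granule genes had, like the 6 genes, passed the authors' selection, and 62.5% of all listed genes were called lower. None of the sensor genes is listed. Neurog3, Neurod1, Nkx2-2, Pax4, Isl1 and Rfx6 are not in the table either, and their levels were not analysed here.

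The 1 further factor of the list in the table moved the other way. Foxa2, a forkhead factor of endodermal epithelium that also acts in enteroendocrine cells, was at 227 and 113 normalized counts in libraries 51 and 53 and at 69.6 and 74.9 in libraries 50 and 52, a log2 difference of 1.14 (standard error 0.45). In Foxa2, both Efhd2f/f Vil1cre/+ libraries lay above both Efhd2f/f libraries, as for 32% of listed genes. It was called higher, as 30.4% of listed genes were, but not with a pseudocount of 0.1 or with equal sums. Calls for Foxa2 are likewise not read from the fits that leave a genotype with 1 library. The table annotates 20 genes with a transcription factor family, among them the 5 factors described here. Of the other 15, limma called 11 higher and 3 lower, beside 30.4% and 62.5% of listed genes. The 5 had been picked by name from the table, so no contrast with the other factors is read. The 3 lower ones were Peg3 (-1.45), Irf5 (-1.40) and Zfp831 (-1.06).

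**Figure D3:**
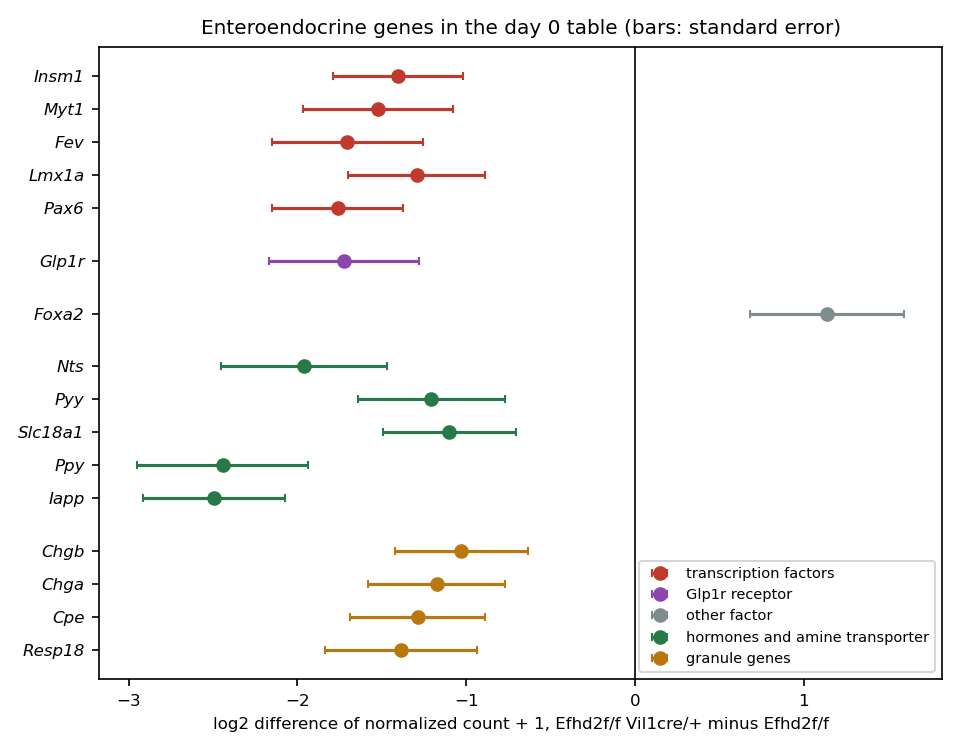
Log2 difference in normalized count + 1 (x axis) with its standard error for the 6 genes and for each gene of the enteroendocrine lists in the day 0 table. Foxa2, at 1.14, is the only gene to the right of 0, and Iapp, the amylin gene, at -2.49, lies farthest to the left.

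To set the factors against the amount of enteroendocrine RNA in each library, their levels were divided by that of Chga, a granule gene common to most enteroendocrine cells, a comparison chosen after the values were seen. Per 1000 normalized counts of Chga, Fev was at 4.40 and 4.33 in libraries 51 and 53 and at 8.02 and 5.73 in libraries 50 and 52. Pax6 was at 3.85 and 2.34 against 4.45 and 5.67, Myt1 at 9.36 and 11.4 against 14.8 and 12.5, and Insm1 at 14.9 and 13.4 against 15.3 and 18.6. In these 4 genes the genotypes still did not overlap, as for 31.7% of listed genes in this direction. Lmx1a, at 11.0 and 13.0 against 11.7 and 15.1, and Glp1r, at 11.0 and 4.66 against 10.9 and 11.1, overlapped.

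Relative to Chga, the mean of Efhd2f/f Vil1cre/+ IECs was between 61.2% (Pax6) and 89.4% (Lmx1a) of that of Efhd2f/f IECs. Chga itself was at 44.1%. Divided by Chgb instead, the means were between 55.4% (Pax6) and 81.3% (Lmx1a). In all 6 genes the genotypes then did not overlap, as for 38.8% of listed genes in this direction. Whether Lmx1a and Glp1r overlapped thus depended on the gene chosen as the divisor. Chgb itself was at 49.1%, and for all 309 listed genes the means differed by more than 2-fold. The direction of these ratios was therefore largely fixed by the selection of the genes and of the divisor, and nothing is read from it.

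**Figure D4:**
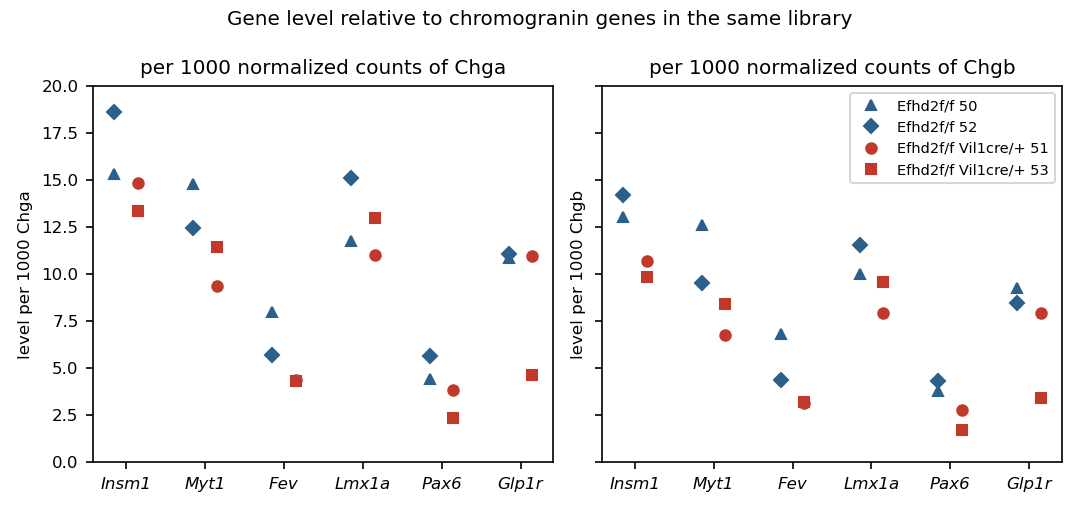
Level of each gene per 1000 normalized counts of Chga (left) and of Chgb (right) in the same library (y axis, linear from 0), with Efhd2f/f libraries in blue and Efhd2f/f Vil1cre/+ libraries in red. Blue and red points overlap for Lmx1a and Glp1r on the left and for no gene on the right.

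Some genes of other cells were also lower on day 0, like most genes in the table. Of 24 markers of intraepithelial lymphocytes, 12 are in the table, and in all 12 both Efhd2f/f Vil1cre/+ libraries were below both Efhd2f/f libraries (67% of listed genes were). Of the 12, 9 were called lower, as were 62.5% of listed genes. Their summed level was 2018 and 2453 normalized counts in libraries 51 and 53 and 6238 and 3771 in libraries 50 and 52. The most abundant were Cd7, Il2rb, Tcrg-C2 and Nkg7, and the T cell receptor constant genes Trac and Trdc were among them. Per 1000 counts of that sum, Glp1r was at 10.03 and 4.49 against 9.59 and 11.8, and the genotypes overlapped, as they did for Insm1 and Lmx1a, while Myt1, Fev and Pax6 were still separate (34.6% of listed genes were). That sum was at 44.7% of its Efhd2f/f level, so the direction of these ratios too was largely fixed by the selection. The part of lymphocytes in the level of Glp1r was not tested. None of 16 enteric neuron and glia markers, 8 goblet cell markers or 6 tuft cell markers is in the table.

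Of 16 posterior Hox genes, which mark position along the colon, Hoxb13 (1.51) and Hoxa13 (1.09) are in the table, both called higher in Efhd2f/f Vil1cre/+ IECs, as were 30.4% of listed genes. Of 14 heat-shock genes 10 are listed, all of them called higher, with a summed level of 77818 and 63254 normalized counts in libraries 51 and 53 and 17539 and 19019 in libraries 50 and 52. With equal sums over the listed genes, 30 genes of the table in place of 94 were called higher, with 6 of the 10 heat-shock genes and neither Hox gene among them. The part of these differences in the level of the factors and of Glp1r was not tested.

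The genes with the profile most like that of the 6 were found from the distance of each gene's centred log2 values to the median profile of the 6 over the 4 libraries. Among the nearest were Cpb2, a carboxypeptidase gene, at a root-mean-square distance of 0.084, the lymphocyte receptor gene Ly9 (0.10), the predicted gene Gm11427 (0.10) and H2-Ob (0.11), a class II antigen presentation gene. Among the 6 genes themselves this distance ranged from 0.11 (Insm1) to 0.38 (Glp1r). With 4 libraries and a table selected by genotype, many genes share such a profile.

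On day 7 of DSS colitis none of the 6 genes, and none of the 91 other enteroendocrine genes, is among the 128 genes in the table. Their levels on that day were therefore not analysed here, and it was not tested whether the difference of day 0 was present or absent during colitis.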

How the data were processed

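IECs of the colon were sequenced from 4 groups of 2 libraries (2 genotypes, day 0 and day 7). The labels name CASAVA 1.8, fastp, HISAT2 2.0.5, featureCounts 1.5.0-p3 and DESeq2 1.20.0 in the submitters' processing notes, with the builds GRCm38 and mm10. The deposited signal is a normalized count per gene and library, scaled by the authors within each day's table by a method not given in the sources used here. The values are not whole, and whole reads were not recovered, so no count model was used and no counting interval was computed. The authors kept genes past their fold change and adjusted p thresholds, and their own columns of means, fold changes and p-values were not used.

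Values under 1e-06 were set to 0, and log2(value + 1) was compared between the genotypes of day 0 by limma 3.58.1 in R 4.3.3 (lmFit, eBayes), with Benjamini-Hochberg adjustment over the 309 genes and a call at an adjusted p under 0.05 and an absolute log2 difference above 1. Such differences understate the change of low genes. The variance that limma shares was estimated from genes already selected for their difference, and p-values measure only the spread between libraries, which may be technical. The fit was tested on simulated whole counts in which most genes were unchanged. All genes of the day 0 table were selected and their values are scaled. The simulation therefore does not show the error rate of the calls here. Python 3.11.15 with pandas 2.3.3 was used for the remaining steps. Gene models came from GENCODE release M21, whose coordinates equal those of the table for 5 of the 6 genes (the ends of Glp1r differ), and promoters from RefSeq.

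The 6 genes and all gene lists were chosen with earlier results of these data known. Named were the 6 genes, Efhd2, the listed genes of the enteroendocrine and context lists (at most 4 per list, by level) and the 5 nearest profiles, of which 1 is not reported here. Iapp, Trac, Trdc, Peg3, Irf5 and Zfp831 were named after their values were seen. Alternatives were pseudocounts of 0.1 and 10, a mean of at least 10, equal sums, no variance moderation and each library left out.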

Additional observations from a re-analysis of the deposited data

How the results depend on the processing

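The log2 differences of the 6 genes were negative and beyond -1 in each setting run, and the table had kept its genes by the size of this difference. All 6 were called with pseudocounts of 0.1 and 10, with a mean of at least 10 and with equal sums. In these settings limma called 268 of 309, 268 of 309, 277 of 296 and 237 of 309 genes of the table, so nothing is read from this count. Equal sums over the listed genes moved the median log2 difference of the table from -1.17 to -1.79 and that of the summed level of the 6 genes from -1.54 to -2.15, and 30 genes were called higher in place of 94. Foxa2, the 1 further factor, was not called with equal sums or with a pseudocount of 0.1 (0 in each). Without variance moderation, limma's linear fit called 0 genes in all, higher or lower, and so 0 of the 6 genes, 0 hormone genes, 0 granule genes and 0 further factors, with 147 of 309 genes and 3 of the 6 at an unadjusted p under 0.05. With each library left out in turn, limma called from 0 to 237 genes, 0 to 78 higher and 0 to 159 lower, 0 to 4 of the 6 genes, 0 to 5 hormone genes, 0 to 4 granule genes and 0 further factors. The counts of 0 came without library 50, 51 or 53, when 179, 111 and 149 genes had an unadjusted p under 0.05, and the lone library of a genotype was then assumed to vary like the other group. The causes of these counts were not tested. No paired analysis was possible because the tables number their libraries differently from the replicates in the labels. The fit for day 7 was not run because no gene described here is in that table. The low counts of these genes and the unknown depth limit the precision of each value.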
